A study of Mus musculus with 63 samples.

Results

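The genes described here encode the proteins of the cytosolic ribosome. They were taken by name, as every symbol made of Rpl, Rps or Rplp with its number and paralog letters, leaving out the Rps6k kinases and symbols marked as pseudogenes. This rule found 85 of the 24990 rows of the deposited gene tables, of which 50 were Rpl genes (large subunit), 32 were Rps genes (small subunit) and 3 were Rplp genes (the acidic stalk). The rule used no measured value. It left out ribosomal protein genes with other names, such as *Rpsa*, *Fau* and *Rack1*. Of the 85 rows, 4 join a member to an overlapping or near-identical gene (*Rpl26*/*Gm15772*, *Rps27*/*Rps27rt*, *Rpl30*/*Gm12191* and *Rpl34*/*Rpl34-ps1*).

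Each ribosome carries a single copy of most of these proteins, so cells make the corresponding mRNAs in balanced and very large amounts. The mRNAs are short, and most begin with a C followed by a run of pyrimidines, the 5′ terminal oligopyrimidine (TOP) tract, through which their translation responds to nutrient and mTOR signalling. Several members have a paralog that is used in particular tissues, such as *Rpl3l* in striated muscle, *Rpl10l* and *Rpl39l* in testis, and *Rpl22l1* beside *Rpl22*.

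The study examined *Chaserr*, a long noncoding RNA gene (1810026B05Rik) just upstream of *Chd2*, which encodes a chromatin remodeller, and asked how loss of *Chaserr* acts on *Chd2* and on other genes. RNA-seq compared *Chaserr*+/- (Het) with WT in whole E9.5 embryos, whole E13.5 embryos, adult brain and mouse embryonic fibroblasts (mEFs), with 3 libraries per group. In mEFs it also compared *Chaserr*-/- (KO), homozygous *Chd2*m/m and the double mutant *Chaserr*-/- *Chd2*m/m (DKO), each with its own 3 WT libraries, using 3, 2 and 3 mutant libraries. The titles place the WT mEFs of the Het and KO sets in the same pregnancy as their mutants, so set and pregnancy cannot be told apart. The WT of the DKO set are titled as from a *Chaserr*+/- *Chd2*+/m cross, but the DKO libraries as from a *Chd2*+/m cross. An RNA immunoprecipitation (RIP) with CHD2 antibody, with IgG, and the input, each in 2 libraries, was labelled as Neuro2a, a mouse neuroblastoma line.

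The *Chaserr* allele lacks the promoter and first exon, and animals of 2 founder lines were used interchangeably. The *Chd2*m allele is a small frameshifting deletion in the third exon that lowers CHD2 protein and is a hypomorph rather than a null. All animals descended from CB6F1 zygotes injected with Cas9 guides and were backcrossed to C57BL/6, and no drug was given. The mEFs were primary cells from E13.5 embryos without head and liver, a mixed population whose makeup can vary between embryos. In bulk RNA, fewer cells of a type and less RNA per cell cannot be told apart. The labels do not say for every group that libraries came from different animals, so p-values measure the spread between these libraries.

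The 47 RNA libraries held 7621335 to 33192002 assigned reads. Brain replicate 3 of both genotypes was prepared with the TruSeq kit, like the embryos, and the other brains and all mEFs with the SENSE kit. These are mRNA kits. The RIP libraries, input included, were instead prepared from RNA depleted of rRNA (RiboCop) with a total RNA kit. *Chd2* was higher in all 7 mutant sets than in their WT, with log2 fold changes from 0.55 in mEF Het to 1.88 in DKO (edgeR adjusted p 0.0369 and 8.78e-06), although in E9.5 and brain it did not pass (adjusted p 0.104 and 1). *Chaserr* had 0 counts in all 3 KO libraries. All 7 fibroblast markers were detected in each mEF group. The RIP libraries did not hold a neuroblastoma profile alone, and their marker levels are given with the RIP results.

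To show the tract that defines these mRNAs, 30-base windows around the annotated start were read from RefSeq promoters (GRCm38.p6), with the start as base 16. The capitals mark the tract nearest the start, that is a C followed by at least 4 further C or T, searched on the transcript strand only. These members are shown because the comparisons below turn on them: the stalk gene *Rplp2* and the core members *Rps27*, *Rps15a* and *Rpl39* carry a tract across the start, in the core member *Rps26* it lies downstream, and *Rpl22l1*, *Rps27l* and *Rpl39l* are paralogs whose levels varied between groups.
Rplp2: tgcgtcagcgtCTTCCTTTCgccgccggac
Rps27: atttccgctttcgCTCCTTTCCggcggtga
Rps15a: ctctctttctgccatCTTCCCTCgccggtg
Rps26: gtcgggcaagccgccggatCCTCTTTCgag
Rpl39: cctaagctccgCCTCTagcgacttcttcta
Rpl39l: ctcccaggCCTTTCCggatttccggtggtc
Rpl22l1: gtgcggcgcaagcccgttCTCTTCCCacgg
Rps27l: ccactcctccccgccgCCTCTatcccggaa
The windows lie at chr7:141447636-141447665 (plus strand, *Rplp2*), chr3:90213634-90213663 (minus, *Rps27*), chr7:118116133-118116162 (minus, *Rps15a*) and chr10:128626492-128626521 (minus, *Rps26*). Those of the others lie at chrX:37085208-37085237 (minus, *Rpl39*), chr16:10170213-10170242 (plus, *Rpl39l*), chr3:28805493-28805522 (plus, *Rpl22l1*) and chr9:66946071-66946100 (plus, *Rps27l*, the first of its 2 annotated starts). Each spans the annotated promoter edge and the first transcribed bases of its gene.

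RefSeq promoters matched 64 of the 85 members. The annotated start base was a C followed by at least 4 further C or T in 14 of the 64 (21.9%), compared with 3.01% of 27025 genes. This does not count tracts such as that of *Rpl39*, which ends on the start base. A tract began within 15 bases of the start in 47 members (73.4%), compared with 44.9% of genes. The start base itself was a C in 34.4% of members and 18.9% of all genes. No complete tract lay inside the windows of *Rpl41*, *Rplp0*, *Rps4x* or *Rpl7l1*. *Rplp0* was still among the 47 members, because that count did not require the tract to end inside the window. Annotated starts can lie a few bases from the start in use. A window without a tract thus says only that no complete tract lies inside it.

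The members lie across the genome, most often on chromosome 7 (14 genes), 17 (8), 11 (7) and 9 (6), among the 83 with a position. Their median transcript length was 725 bases (304.73 to 5134), compared with 2342 for all rows with counts, and only 8 were over 1500 bases. Their median GC content, 50.71%, was close to the 50.19% of all rows. In 28 members the deposited count was fractional in at least 1 library, which occurs where reads were shared with near-identical sequences such as processed pseudogenes.

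Together the members made up a large share of the mRNA, measured as the percent of the summed TPM, the level of a transcript corrected for its length and scaled to the same total in every library. The share was highest in cultured fibroblasts and lowest in brain. It was 30.9 ± 0.848% (SD, n = 3) in the WT mEFs of the *Chd2*m/m set, 27.9 ± 1.36% in the WT of the KO set, 25.9 ± 1.07% in the WT of the Het set and 25.4 ± 0.996% in the WT of the DKO set. WT embryos followed with 21.0 ± 0.329% at E9.5 and 20.6 ± 0.447% at E13.5. The RIP input held 15.6 ± 1.56% (n = 2) and WT brain 10.3 ± 1.14%.

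The groups next to each other in that order overlapped for the KO and Het sets, for the Het and DKO sets and for E9.5 and E13.5. The *Chd2*m/m set (30.2 to 31.8%) lay above the next highest set, and the brain (8.96 to 11.03%) lay below all the others. The 4 WT mEF sets spanned a wider range than the difference between any mutant mEF group and its own WT. Embryos and mEFs were prepared with different kits, so tissue and kit cannot be told apart between them. The same holds for the RIP input, prepared from RNA depleted of rRNA, against all the other groups. Because the members are short, they took up far less of the reads than of the TPM. Their share of counts was 2.27% in WT brain and 9.97% in the highest WT mEF set.

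**Figure D1:**
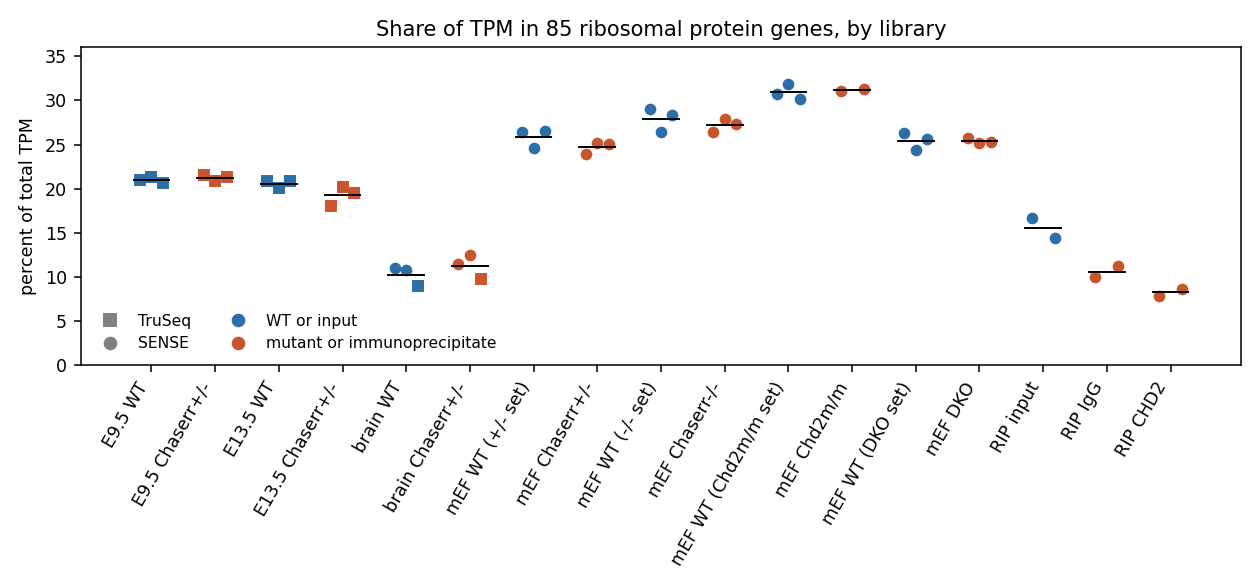
Percent of total TPM held by the 85 cytosolic ribosomal protein genes in each of the 47 RNA libraries, with 1 point per library and a bar at the group mean. All mEF libraries lie above the embryo libraries, and the 3 WT brain libraries (8.96 to 11.03%) lie below every WT library of the other tissues.

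The same share was computed for the mutants. E9.5 Het embryos held 21.2 ± 0.341% and E13.5 Het 19.3 ± 1.14%, and Het brain held 11.2 ± 1.39%. In mEFs the share was 24.7 ± 0.677% in Het, 27.2 ± 0.754% in KO, 31.2 ± 0.143% (n = 2) in *Chd2*m/m and 25.4 ± 0.266% in DKO. In all 7 mutant groups the range of the libraries overlapped that of their WT, although in brain the overlap arose across the kits. The SENSE brains held 11.03 and 10.8% in WT and 11.5 and 12.5% in Het, and the TruSeq brains 8.96% and 9.74%. As a share of counts the ranges did not overlap in brain (2.25 to 2.28% in WT, 2.43 to 2.73% in Het) or at E13.5 (6.09 to 6.31% in WT, 5.74 to 5.97% in Het).

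The median member stood at 2503 TPM in WT E9.5 embryos and 2385 TPM at E13.5, and at 1810 to 2278 TPM in the WT mEF sets. In WT brain it stood at 825 TPM and in the RIP input at 879 TPM. All rows with a value above 0 had a median of 5.13 to 10.6 TPM in these WT and input groups. The highest members, averaged over the WT groups and input, were *Rpl41* (14657 TPM), *Rpl23a* (9259), *Rpl38* (9087), *Rps28* (8942) and *Rps26* (7761), all of them short mRNAs. The lowest were the testis paralog *Rpl10l* (0.07 TPM), the muscle paralog *Rpl3l* (0.116), *Rpl39l* (14.8), *Rpl32l* (19.7) and *Rpl7l1* (75.4).

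The level of some short members differed between the library kits. *Rpl38*, a large-subunit protein with an annotated length of 304.73 bases, stood at 11668 and 11771 TPM in the 2 SENSE libraries of WT brain and at 2276 TPM in the TruSeq library. In Het brain it stood at 11435, 12748 and 2844 TPM, with the TruSeq library again lowest. *Rpl41*, which encodes the smallest ribosomal protein, gave 9776, 8802 and 3311 TPM in WT brain. For both genes the difference between kits within a genotype exceeded any difference between genotypes within a kit. Other short members stood close in both kits, such as *Rpl39* with 1133, 1105 and 1252 TPM in WT brain.

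Of the 8 paralog pairs, *Rpl22* and *Rpl22l1* varied most. The proteins are close relatives of the large subunit. *Rpl22l1* made up 64.5 ± 3.22% of the pair's TPM in WT E9.5 embryos, 67.8 ± 3.26% at E13.5 and 83.4 ± 0.955% in WT brain. In WT mEFs it made up 49.1% in the Het set, 42.8% in the KO set, 51.1% in the *Chd2*m/m set and 80.9% in the DKO set, so that WT libraries of different sets stood far apart. The WT libraries of the DKO set also differed in other ways. Their mean fragment length was 84.3 to 84.9 bases, compared with 109.5 to 135.8 in the other WT mEFs. Their *Chaserr* level was 80.0 to 93.7 TPM, compared with 8.63 to 22.2 TPM. Culture and library preparation cannot be told apart between sets. In the RIP input *Rpl22l1* made up 4.95% of the pair. Cells and library preparation cannot be told apart there either, because the input was prepared from RNA depleted of rRNA.

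*Rps27l*, a paralog of *Rps27* and a target of p53, made up 13.0 ± 0.333% of its pair in WT E9.5 embryos, 6.63 ± 0.287% at E13.5 and 2.47 ± 1.13% in brain. In WT mEFs the share ranged from 7.83% in the KO set to 20.1% in the DKO set. *Rpl36al* made up 24.6% of its pair with *Rpl36a* in WT E13.5 embryos, 41.3% in WT brain and 49.0% in the WT mEFs of the DKO set, while *Rpl7l1* stayed at 2.79 to 5.20% of its pair in the WT groups. *Rpl3l* and *Rpl10l* stood near 0 throughout. Reads can be split wrongly between near-identical sequences, so these shares carry that uncertainty. The deposited counts were fractional in 45 libraries for *Rpl22l1*, 46 for *Rpl7l1*, 36 for *Rpl36a* and 3 for *Rpl36al*. They were fractional in 0 libraries for *Rpl22*, *Rpl7*, *Rps27* and *Rps27l*. Reads of *Rpl22l1* were thus shared with a sequence other than *Rpl22*.

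**Figure D2:**
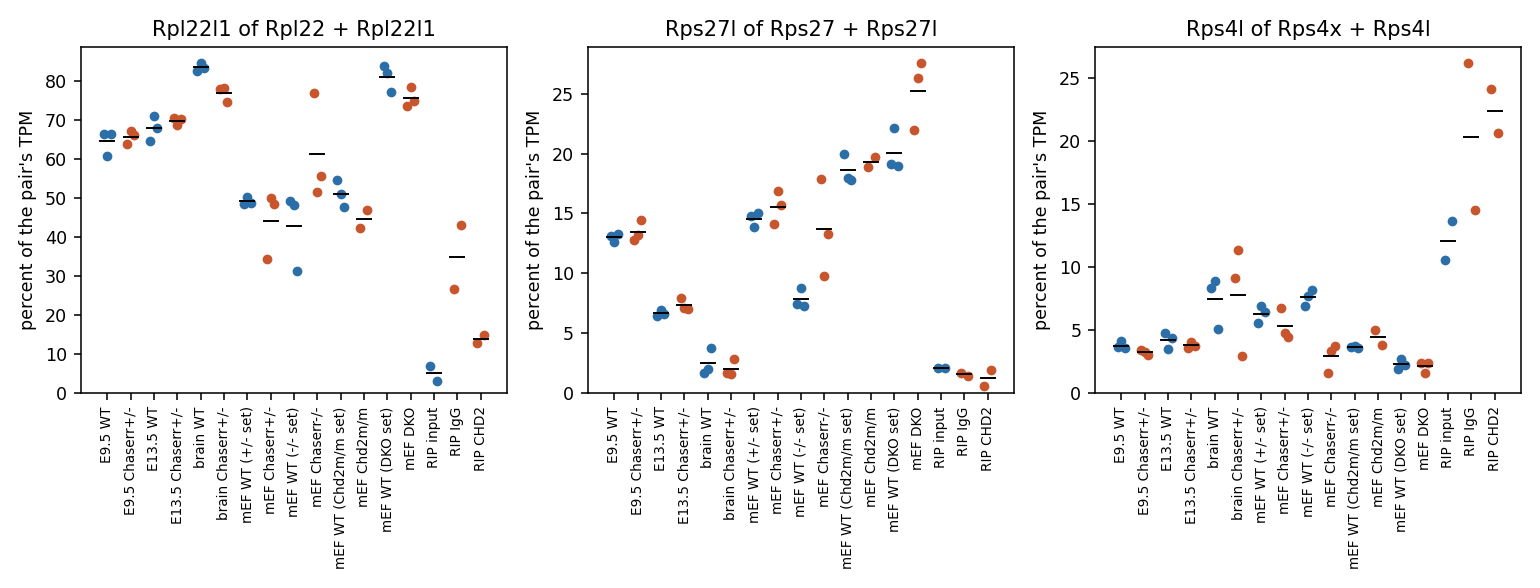
Percent of each pair's summed TPM held by the minor paralog in each group, with 1 point per library and a bar at the group mean, for *Rpl22l1*, *Rps27l* and *Rps4l*. *Rpl22l1* ranges from 4.95% (mean, RIP input) to 83.4% (mean, WT brain), with WT mEF sets at 42.8 to 80.9%.

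Between WT embryos of the 2 stages, most ribosomal protein mRNAs were lower at E13.5 than at E9.5 relative to other genes. A member is called here where its Benjamini-Hochberg adjusted p over all genes in the quasi-likelihood test of edgeR was under 0.05, and 70 of 83 members tested were called. Of these, 63 were lower, in a comparison where 38.3% of all genes tested were called lower, and 7 were higher, where 42.1% of all genes were called higher. The median log2 fold change was -0.31 for members and 0.06 for all genes. With scaling to library totals only, the median of all genes moved to 0.39 and that of the members to 0.02, with 24 members called lower and 27 higher, so these falls are relative to other genes. Markers of several cell types differed beside them and were called higher at E13.5. These were 16 of 16 macrophage markers (median 5.12, summed to 11.1 to 12.9 TPM at E9.5 and 370 to 406 TPM at E13.5), 5 of 5 neuron markers (3.68), 10 of 12 skeletal muscle markers (3.38) and 6 of 7 fibroblast markers (1.92). Their part in the values of the members was not tested.

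*Rps2*, a small-subunit protein, stood at 5145, 5269 and 5195 TPM at E9.5 and at 3086, 2599 and 2581 TPM at E13.5. The ranges did not overlap, and the log2 fold change was -1.18 (SE 0.0693, edgeR adjusted p = 2.59e-07). *Rpl6*, of the large subunit, stood at 2525, 2564 and 2422 TPM and then at 1801, 1658 and 1721 TPM, a log2 fold change of -0.79 (SE 0.0525). *Rpl32l* (-1.63), *Rpl7l1* (-0.74), *Rpl3* (-0.64) and *Rpl36al* (-0.60) were called lower as well.

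The stalk genes *Rplp0* (-0.44), *Rplp1* (-0.35) and *Rplp2* (-0.20), and *Rps27a*, which encodes a ubiquitin fusion protein (-0.18), were all called lower. *Rpl39l* moved the other way, from 0.67, 0.23 and 0.11 TPM to 6.86, 7.24 and 4.16 TPM (log2 fold change 3.87, SE 0.471, edgeR adjusted p = 4.12e-05), a rise from a very low level. *Rps27* (0.34), *Rps14* (0.32), *Rps7* (0.24) and *Rpl13a* (0.23) were also called higher. With the trend of each library with GC content and length removed, *Rps14* (0.03, edgeR adjusted p = 0.601) and *Rpl13a* (0.04, edgeR adjusted p = 0.404) were no longer called. In the other lists of the translation machinery, 34 of 34 ribosome biogenesis genes tested were called lower (median -1.28), as were 19 of 22 other TOP mRNAs (2 higher, median -0.66) and 57 mitochondrial ribosomal protein genes (7 higher, median -0.39). Of the nuclear genes of oxidative phosphorylation, 18 were called lower and 30 higher (median 0.07).

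**Figure D3:**
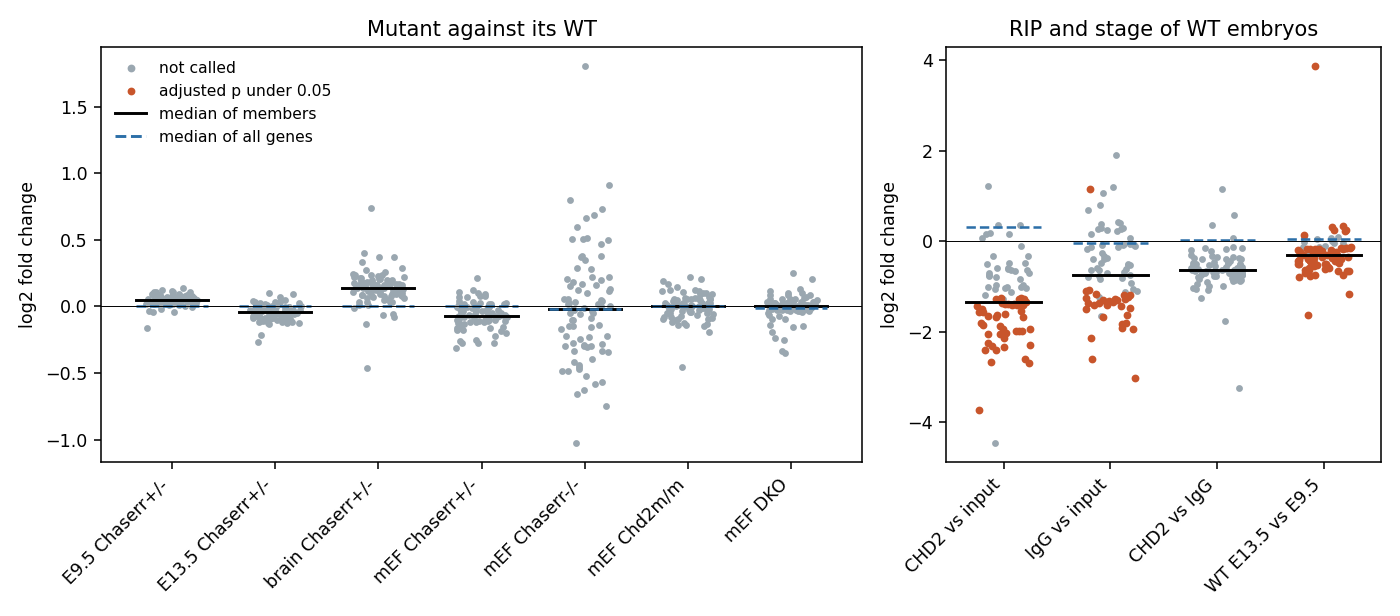
Log2 fold change of every tested member in each comparison, with 1 point per gene, in red where the adjusted p was under 0.05, a bar at the median of the members and a dashed line at that of all genes. The Het comparisons, *Chd2*m/m and DKO lie close to 0 (medians -0.07 to 0.14), the KO comparison spreads widely around a median of -0.02, and the RIP comparisons lie below 0 (medians -1.34 to -0.64).

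In E9.5 Het embryos no member passed the test of 82 (edgeR and DESeq2 both 0), where 0% of all genes were called by edgeR and 0.0345% by DESeq2. At an unadjusted p under 0.05 there were 6, all higher, beside 3.12% of all genes. The members leaned upward together by a small amount, with 76 of 82 above 0 and a median log2 fold change of 0.05 against 0.00 for all genes. In normalised counts, 18 members had all 3 Het libraries above all 3 WT libraries, compared with 5.34% of all genes tested.

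*Rps21*, of the small subunit, stood at 2146, 2036 and 2329 TPM in WT and 2282, 2311 and 2392 TPM in Het, ranges that overlapped in TPM, with a log2 fold change of 0.14 (SE 0.0521, edgeR adjusted p = 1). *Rpl8* gave 0.12, *Rpl22l1* 0.13 and *Rps4l* -0.16. The related lists had similar values: 33 of 34 ribosome biogenesis genes (median 0.08), 74 of 78 mitochondrial ribosomal protein genes (0.07) and 20 of 22 other TOP mRNAs (0.06) lay above 0, none of them called. With GC content and length corrected, the median of the members was 0.01. The 7 fibroblast markers, all detected and all with values below 0, summed to 585 to 718 TPM in WT and 455 to 548 TPM in Het. The 12 genes of the skeletal muscle list summed to 739 to 1047 TPM in WT and 53.3 to 977 TPM in Het. *Actc1* made up most of the WT sums (624 to 904 TPM), while *Myod1* stood at 0.04 TPM in each WT library. At this stage the sum thus mostly follows *Actc1*. The low end came from Het replicate 3, with *Actc1* at 24.7 TPM compared with 854 and 577 TPM in replicates 1 and 2. No gene of the fibroblast and skeletal muscle lists was called. The part of both lists was not tested.

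In E13.5 Het embryos edgeR called 0 of 83 members, where 0.0314% of all genes were called. DESeq2 called 1, *Rpl13a*, where it called 0.132% of all genes, and 1 member had an unadjusted p under 0.05, beside 6.34% of all genes. *Rpl13a*, a large-subunit protein also known for regulating translation of inflammatory mRNAs, stood at 3176, 3046 and 3231 TPM in WT and 2393, 2659 and 2526 TPM in Het. The ranges did not overlap, and the log2 fold change was -0.27 (SE 0.0556, edgeR adjusted p = 0.732, DESeq2 adjusted p = 0.00105). The median of the members was -0.04 (0.00 for all genes), with 65 of 83 below 0, the other direction than at E9.5. *Rpl14* (0.10), *Rps27l* (0.09), *Rps4l* (-0.21) and *Rpl37* (-0.13) had the other extreme values. The erythroid list, whose 10 genes summed to 25509 to 38997 TPM in WT and 24097 to 79405 TPM in Het, varied beside these values, and its part was not tested.

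In Het brain edgeR and DESeq2 called 0 of 82 members, where they called 0% and 0.00671% of all genes. At an unadjusted p under 0.05 there were 0 members, beside 2.47% of all genes. The median was 0.14 against 0.01 for all genes, with 76 of 82 above 0. Without the 2 TruSeq libraries, an alternative chosen after seeing the data, it was 0.16, and 20 members had an unadjusted p under 0.05, beside 11.8% of all genes. With the kit as a covariate it was 0.15, and 14 members had an unadjusted p under 0.05, beside 15.1% of all genes. Neither fit called a member, and the lowest edgeR adjusted p was 0.341 and 0.228. With the replicate number as a block, which here also separates the kits, 0 were called and the lowest adjusted p of a member was 0.315. Among the largest values were those of *Rpl32l* (0.74) and *Rpl37* (0.40). The 5 astrocyte and oligodendrocyte markers, all detected, summed to 7167 to 12533 TPM in WT and 4784 to 7281 TPM in Het, and their part was not tested.

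*Rpl22l1* was the member with the largest fall in Het brain. It stood at 252, 241 and 648 TPM in WT and 166, 217 and 428 TPM in Het, where the TruSeq library is the highest of each group. The log2 fold change was -0.46 (SE 0.396, edgeR adjusted p = 1), and 0.01 without WT replicate 3. As a share of its pair within each library, *Rpl22l1* made up 82.6 to 84.5% in WT and 74.6 to 78.1% in Het. These ranges did not overlap, although 3 against 3 libraries cannot give a two-sided exact permutation p below 0.1.

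**Figure D4:**
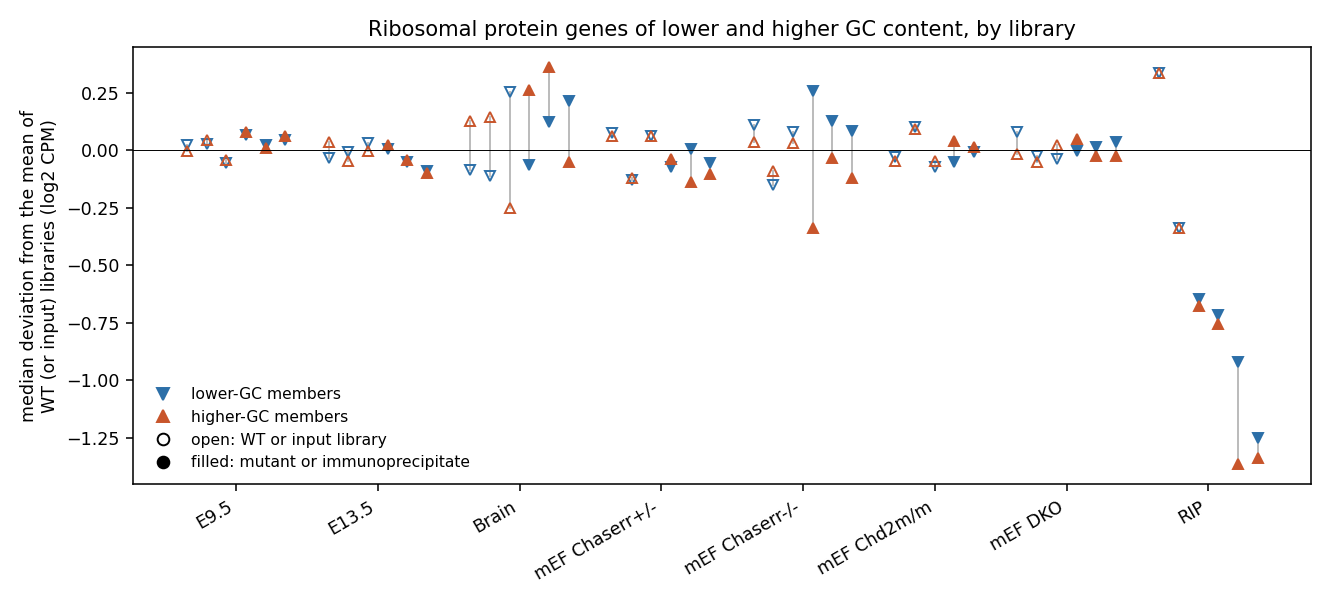
Median deviation (log2 CPM) of the lower-GC and higher-GC members in each library from the mean of the WT or input libraries of its set, open for WT or input and filled for mutant or immunoprecipitate, with a line joining the 2 medians of a library. The 2 medians lie together in most libraries. They lie apart in the brains, in CHD2 RIP replicate 1 (0.45), in KO replicates 2 and 3 (0.16 and 0.21) and most in KO replicate 1, where they differ by 0.60.

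The members moved together between replicates of a group, and not only between groups. In WT replicate 2 of the mEF Het set the median member lay 0.12 below its group mean on the log2 scale, with 1.2% of members above that mean, while 94.0% lay above it in replicates 1 and 3. In WT replicate 2 of the *Chd2*m/m set the median member lay 0.10 above, with 96.4% of members above the mean. The E13.5 Het libraries 1 and 3 lay 0.06 above and 0.05 below. The 2 RIP input libraries stood 0.34 above and below their mean, with 100% and 0% of members above it. In brain the lower-GC members lay 0.50 (WT) and 0.26 (Het) above the higher-GC members in the TruSeq libraries and 0.21 to 0.32 below them in the SENSE libraries, each measured against the WT mean.

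In Het mEFs edgeR and DESeq2 called 0 of 83 members, where they called 0.173% and 0.745% of all genes. At an unadjusted p under 0.05 there were 6, all lower, beside 8.36% of all genes. The median was -0.07 (0.00 for all genes), with 63 of 83 below 0. *Rpl36*, of the large subunit, stood at 4532, 4422 and 4830 TPM in WT and 3607, 3719 and 4107 TPM in Het, without overlap, a log2 fold change of -0.27 (SE 0.0901, edgeR adjusted p = 0.389). *Rps4l* (-0.31) and *Rpl10a* (-0.28) had the other largest falls, and *Rpl32l* (0.21), *Rpl31* (0.12) and *Rps27l* (0.11) the largest rises. Beside these values, the 12 skeletal muscle markers, all detected, summed to 340 to 384 TPM in WT and 482 to 726 TPM in Het, and their part was not tested.

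In KO mEFs the members spread in both directions. By edgeR 0 of 83 members were called, where 0.118% of all genes were, with a lowest adjusted p of 0.0522. DESeq2 called 23 (13 higher, 10 lower), where it called 19.0% of all genes. At an unadjusted p under 0.05 there were 33 members (33.9% of all genes), of which 16 were higher (17.7% of all genes) and 17 lower (16.1%). The share of members past that level is close to that of all genes. The median was -0.02 for members and for all genes.

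*Rpl22l1* had the largest rise. It stood at 121, 121 and 57.5 TPM in WT replicates 4 to 6 and at 717, 189 and 223 TPM in KO replicates 1 to 3. All KO libraries lay above all WT libraries, with KO replicate 1 far above the others, and the log2 fold change was 1.80 (SE 0.467, edgeR adjusted p = 0.0524) or 0.97 without KO replicate 1 (adjusted p = 0.0451). *Rps27l* stood at 353, 404 and 370 TPM in WT and 1053, 532 and 684 TPM in KO (0.91, SE 0.206). *Rps3a1*, of the small subunit, stood at 1647, 1343 and 1391 TPM in WT and 3432, 2098 and 2552 TPM in KO (0.80, SE 0.175).

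Both groups were separated for those 3 genes, and KO replicate 1 was the highest library each time. Among the falls, *Rpl28* stood at 7721, 7817 and 7413 TPM in WT and 4013, 5450 and 5082 TPM in KO (-0.75, SE 0.143). *Rps4l* stood at 146, 136 and 160 TPM in WT and 54.7, 76.2 and 98 TPM in KO (-1.03, SE 0.203). *Rplp2* of the stalk stood at 3566, 4077 and 4012 TPM in WT and 2157, 3169 and 2565 TPM in KO (-0.66, SE 0.161). These were the largest falls, again without overlap, and KO replicate 1 was the lowest library in each.

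The other stalk genes had lower values as well, with *Rplp0* at -0.58 and *Rplp1* at -0.57, while the ubiquitin fusion gene *Rps27a* had 0.50. *Rpl22* (0.51), *Rpl5* (0.69), which binds 5S rRNA and MDM2, and *Rps2* (-0.47) followed. All 12 genes named here for the KO had an edgeR adjusted p between 0.0522 and 0.0775. Within the paralog pairs, the KO libraries held 1.55 to 3.75% *Rps4l* where their WT held 6.91 to 8.20%, and 45.2 to 48.0% *Rpl36al* where their WT held 38.2 to 39.8%, without overlap.

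The direction in the KO followed the GC content of the member. Across 81 members, Spearman's rho between the log2 fold change and GC content was -0.63, and it was -0.73 across 13052 genes, as a description across genes of the same libraries. The 41 members with GC content of 41.26 to 50.68% had a median of 0.16, with 31 above 0, and 15 higher and 4 lower at an unadjusted p under 0.05. The 40 members at 50.71 to 60.89% had a median of -0.20, with 9 above 0, and 1 higher and 12 lower. In single KO libraries the low-GC members exceeded the high-GC members by 0.60, 0.16 and 0.21 on the log2 scale, compared with 0.07, -0.06 and 0.05 in the WT libraries.

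With the trend of each library with GC content and length removed, rho across members was -0.069, 31 members had an unadjusted p under 0.05, and 23 of these were among the 33 above, all with the same sign. *Rpl22l1* then had a log2 fold change of 1.18 (edgeR adjusted p = 0.105), *Rps27l* 0.48, *Rpl28* -0.45 and *Rps4l* -0.66. Other lists also moved in the KO: the 16 macrophage markers summed to 1340 to 1597 TPM in WT and 1026 to 1082 TPM in KO, the 12 skeletal muscle markers to 1032 to 1851 TPM and 715 to 823 TPM, and the 10 erythroid markers to 406 to 921 TPM and 80.4 to 142 TPM. All 16 and 12 genes of the first lists were detected in both groups, and of the erythroid list *Hbb-bh1* was at 0 in KO. Their part in the values of the members was not tested.

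**Figure D5:**
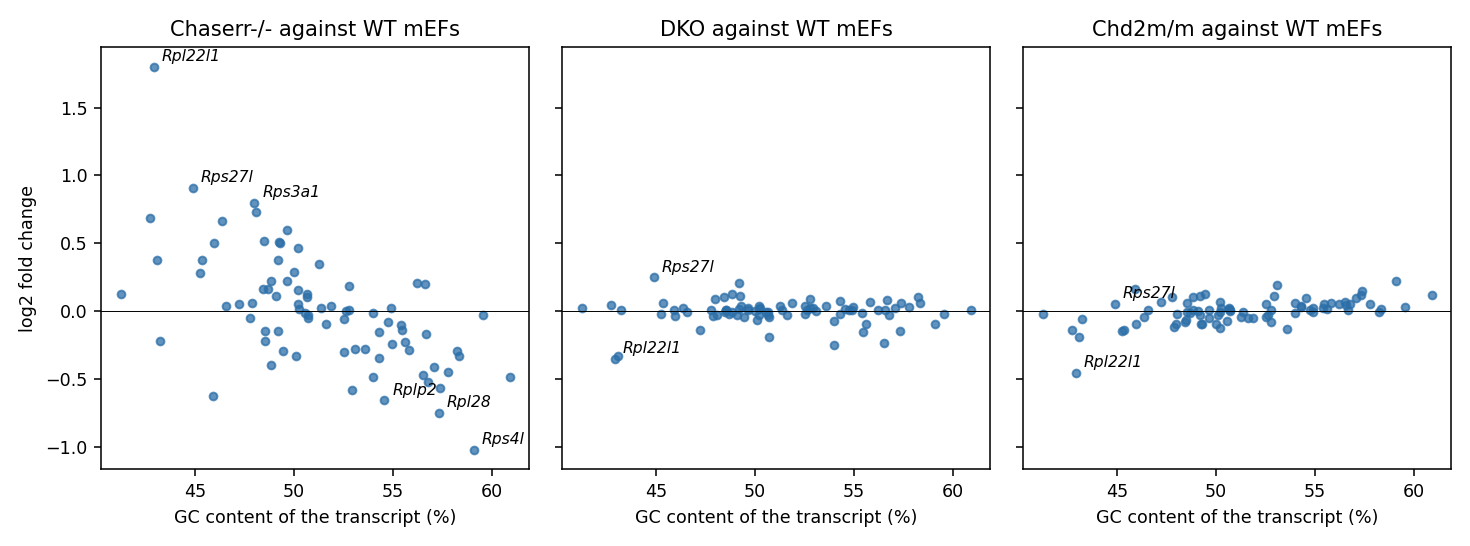
Log2 fold change of each member against the GC content of its transcript (percent) in the KO, *Chd2*m/m and DKO comparisons of mEFs, with 1 point per gene. In the KO the points fall with GC content (Spearman's rho -0.63), in DKO they do not (0.01) and in *Chd2*m/m they rise (0.48).

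The calls in the KO depended on how the test was made. Without a filter on low counts 12 members were called, with at least 10 counts in every library 10, and with library totals only 10. Leaving out KO replicate 1 gave 9 and leaving out KO replicate 2 gave 25. The same 9 genes (*Rpl22*, *Rpl22l1*, *Rpl28*, *Rpl5*, *Rplp2*, *Rps2*, *Rps27l*, *Rps3a1* and *Rps4l*) were called in 6 of the 13 alternatives each.

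In *Chd2*m/m mEFs edgeR and DESeq2 called 0 of 83 members, where they called 0.0145% and 0.0581% of all genes. At an unadjusted p under 0.05 there were 2, both lower, beside 4.51% of all genes, and the median was 0.01 (0.00 for all genes). *Rpl22l1* stood at 202, 168 and 140 TPM in WT and at 104 and 138 TPM in *Chd2*m/m, a log2 fold change of -0.46 (SE 0.149, edgeR adjusted p = 0.937). In TPM the higher mutant library lay just below the lowest WT library. The titles write the library number after the cross. With that number as a block, *Rpl22l1* was the 1 member called (-0.60, edgeR adjusted p = 1.74e-06), where 0.719% of all genes were called. With GC and length correction as well it was not (-0.54, edgeR adjusted p = 0.296). WT replicate 3 has no mutant library of its number, so both block fits estimate the change from the 2 same-numbered pairs alone. That leaves very little from which to measure the spread of a gene, so the call is not firm evidence. *Rps4l* (0.22), *Rpl41* (0.21) and *Rps29* (0.19) had the largest rises, and *Rpl39l* (-0.19) and *Rps15a* (-0.15) the next largest falls.

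In DKO mEFs edgeR and DESeq2 called 0 of 83 members, where they called 0.0924% and 1.58% of all genes. At an unadjusted p under 0.05 there were 3, beside 9.89% of all genes, and the median was 0.01 (-0.01 for all genes). *Rps27l* stood at 1046, 1045 and 1034 TPM in WT and 1102, 1262 and 1361 TPM in DKO, without overlap (0.25, SE 0.0999, edgeR adjusted p = 0.432). *Rpl22l1* stood at 1016, 806 and 692 TPM in WT and 585, 767 and 627 TPM in DKO, with overlap (-0.35, SE 0.155, edgeR adjusted p = 0.488). *Rpl7l1* gave 0.21, *Rpl9* 0.13, *Rpl39l* -0.33 and *Rps18* -0.25. The 12 skeletal muscle markers summed to 605 to 779 TPM in WT and 852 to 1077 TPM in DKO, and the 16 macrophage markers to 906 to 1021 TPM and 578 to 844 TPM, all of them detected, and their part was not tested.

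The KO effect was also tested directly against the other 2. Against the DKO effect edgeR called 0 of 83 members (0.112% of all genes), DESeq2 called 9 (10.6%), and 20 had an unadjusted p under 0.05 (26.2%). Against the *Chd2*m/m effect edgeR called 0 (0.0210%), DESeq2 called 20 (13.0%), and 30 had an unadjusted p under 0.05 (28.4%). For *Rpl22l1* the KO effect exceeded the DKO effect by 2.16 (edgeR adjusted p = 0.0781) and the *Chd2*m/m effect by 2.28 (edgeR adjusted p = 0.0749) on the log2 scale. For *Rps4l* the differences were -0.92 and -1.23 (edgeR adjusted p = 0.0857 and 0.0708), and for *Rplp2* against DKO -0.67 (edgeR adjusted p = 0.0911).

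The RIP libraries went against their label in part. Of 5 astrocyte and oligodendrocyte markers, all 5 were detected in every RIP group, and they summed to 497 to 635 TPM in input, 2332 to 3107 TPM in IgG and 1397 to 1623 TPM in CHD2 libraries, compared with 7167 to 12533 TPM in WT brain. The 5 neuroblastoma markers summed to 262 to 289 TPM in input, 31.8 to 146 TPM in IgG and 241 to 244 TPM in CHD2 libraries. The IgG libraries thus had most of the glial and least of the neuroblastoma RNA, and 16 of 16 macrophage markers were detected too (202 to 247 TPM in input, 964 to 1287 TPM in IgG). The part of these cells in the results below was not tested. The 3 RIP comparisons share libraries, and groups are named as labelled.

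Ribosomal protein mRNAs were lower in both pulldowns than in input. Against input, the CHD2 libraries had 46 of 83 members called, all lower, where 6.16% of all genes were called lower, and a median of -1.34 (0.32 for all genes). With GC content and length corrected that median was -0.80 (0.05 for all genes). The IgG libraries had 31 called lower, where 10.3% of all genes were, and 1 called higher, *Rps29*, where 14.3% were, with a median of -0.74 (-0.04 for all genes). Other lists also had medians below 0 for CHD2 against input. These were -0.82 for other TOP mRNAs, -0.84 for mitochondrial ribosomal protein genes, -0.61 for ribosome biogenesis genes and -0.70 for oxidative phosphorylation genes. For IgG against input the same lists had -0.88, -0.59, -0.69 and 0.15. The members' share of TPM was 14.5 and 16.7% in input, 9.97 and 11.2% in IgG, and 7.89 and 8.64% in CHD2 libraries.

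*Rpl18*, of the large subunit, stood at 2543 and 2292 TPM in input, 730 and 1052 TPM in IgG, and 450 and 723 TPM in CHD2 libraries. Input was far above both pulldowns, with log2 fold changes of -2.60 for CHD2 (SE 0.389, edgeR adjusted p = 0.00858) and -1.84 for IgG (SE 0.377, edgeR adjusted p = 0.0211). *Rplp0*, the core protein of the stalk, stood at 4171 and 3253 TPM in input, 1186 and 1614 TPM in IgG, and 916 and 1304 TPM in CHD2 libraries (-2.32 and -1.80). *Rps29*, a small zinc-binding protein, stood at 1008 and 798 TPM in input, 2757 and 2760 TPM in IgG, and 1516 and 1497 TPM in CHD2 libraries (0.18 and 1.16).

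The other stalk genes *Rplp1* (-0.48 for CHD2, 0.38 for IgG) and *Rplp2* (-0.11 and 0.28) did not pass, while *Rps27a* was called lower with CHD2 (-1.28) and not with IgG (-0.61). *Rps7* (-2.24), *Rpl32* (-2.41), *Rps3a1* (-1.88) and *Rpl39* (-2.34) were also called lower with CHD2, and *Rpl10a* (-2.61), *Rpl27* (-1.93) and *Rps10* (-1.69) with IgG. *Rpl39l* stood at 52.1 and 41 TPM in input, 2.48 and 13.3 TPM in IgG, and 0.95 and 9.33 TPM in CHD2 libraries, and was called lower in both. The calls rest on 2 libraries a group. For CHD2, 0 members were called without input replicate 1, CHD2 replicate 1 or CHD2 replicate 2, and at most 69 without another library. For IgG, 0 were called without input replicate 2, 11 without input replicate 1, 17 without CHD2 replicate 1, 18 without IgG replicate 1 and at most 40 otherwise, and a lone library was assumed to vary like the other groups.

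Between CHD2 and IgG edgeR called 0 of 83 members, where it called 11.5% of all genes. DESeq2 called 19 (24.1% of all genes), and 19 had an unadjusted p under 0.05 (34.5% of all genes), 18 of them lower (12.0% of all genes were lower). The members lay lower with CHD2 as a group, with 79 of 83 below 0 and a median of -0.64 (0.02 for all genes). This was not particular to them. Of the oxidative phosphorylation genes 71 of 72 lay below 0 (median -0.78), and of the mitochondrial ribosomal protein genes 62 of 78 (-0.48). The median was -0.15 for other TOP mRNAs and 0.12 for ribosome biogenesis genes. Among the members, *Rps15a* was the exception with an unadjusted p under 0.05. It stood at 19.6 and 19.6 TPM in IgG and 66.5 and 33.1 TPM in CHD2 libraries (1.15, SE 0.373, edgeR adjusted p = 0.0797), and at 14 and 15.5 TPM in input. With GC content and length corrected it had 0.55 (unadjusted p = 0.182 in edgeR), while *Rpl10a*, which had 0.59 before, had 1.14 (unadjusted p = 0.0258 in edgeR, adjusted p = 0.103).

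Its deposited row has a length of 5134 bases, the longest of the members, so its reads need not come from the short *Rps15a* mRNA alone. *Rpl39* had the lowest adjusted p among the falls (-1.25, SE 0.37, edgeR adjusted p = 0.0619). With the trend with GC content and length removed, the median of the members was -0.22. Leaving out IgG replicate 1, the library with the lowest neuroblastoma sum, gave 59 members called for CHD2 against input, 18 for IgG against input and 2 for CHD2 against IgG, and leaving out IgG replicate 2 gave 28 for CHD2 against IgG.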

How the data were processed

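The 47 RNA libraries were used through the RSEM gene tables that the authors deposited, 1 per library. Their expected counts (estimated counts, with reads shared between genes divided by RSEM) and TPM were made by the authors on a RefSeq annotation edited at the last *Chaserr* exon, and the labels name mm9 and mm10. The 12 ATAC-seq peak lists that the authors deposited (Bowtie2 to mm9, MACS2 per library) hold fold enrichment over background as a ratio. The RSEM, Bowtie2 and MACS2 versions were not given in the sources used here, and the 4C data were not used.

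Expected counts, after rounding, were tested over all genes with edgeR 4.0.16 (R 4.3.3, limma 3.58.1), with filterByExpr, TMM scaling, the quasi-likelihood test, a prior count of 2 for fold changes and Benjamini-Hochberg adjustment. RIP groups shared 1 fit, other comparisons used their own libraries, and the 2 interaction tests compared log2 fold changes within 1 fit. The study's own tool, DESeq2 (1.42.0), was run as an alternative, besides other filters and scalings, a correction for each library's lowess trend (span 0.3) with GC content and length, replicate blocks and leaving out each library. GC content was known for 87.7% of rows with counts and for 83 members. Depth, 7621335 to 33192002 reads, limits rows with few counts.

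The members and lists were chosen with earlier results of these data known. Named genes were the 8 paralog pairs, the 5 highest and 5 lowest members, the 3 largest rises and falls per comparison among members with a mean of at least 1 TPM in a group, all called members where 10 or fewer were called and otherwise the 5 with the smallest p per direction, the stalk genes and *Rps27a*. *Rpl5* and *Rps2* in the KO fall outside that rule and were chosen after their values were seen. Results of some genes that the rule names are not reported here. Same-numbered libraries deviated together in brain (correlations 0.437, 0.529 and 0.747), where replicate 3 came from the other kit. Between WT stages the correlations were smaller and all above 0 (0.0517, 0.235 and 0.158). In the other comparisons of 3 pairs they had mixed signs. In the *Chd2*m/m and DKO sets the titles write the number after the cross. On simulated counts at adjusted p under 0.05, a log2 change of 1.5 was recovered for 96% of changed genes in the KO design, 47.5% in brain and 6% in CHD2 against input, and a change of 0.5 for 52% in the E9.5 design and 2.5% in the KO design.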

Additional observations from a re-analysis of the deposited data

How the results depend on the processing

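Summary values were taken over the comparisons, the shares of TPM and the per-library deviations. Of these, 232 moved by less than the spread between replicates or 1.5 times and 44 by more. Values without single libraries are counted apart, with 200 that moved by less and 23 by more. Over all alternatives the median of the members ran from 0.012 to 0.070 in E9.5 Het, -0.076 to -0.016 in E13.5 Het, 0.11 to 0.19 in brain, -0.13 to -0.028 in mEF Het and -0.032 to 0.056 in *Chd2*m/m. In KO mEFs, 12 members were called without a filter, 10 with at least 10 counts in every library, 23 by DESeq2 and 10 with library totals only, and 0 to 25 without single libraries (9 without KO replicate 1, 25 without KO replicate 2). Their median ran from -0.095 to 0.020 without single libraries. DESeq2 called 1 in E13.5 Het. Against the DKO effect, 1 was called without a filter and 9 by DESeq2 (0 to 15 without single libraries, 15 without KO replicate 2), and medians ran from -0.054 to 0.053. Against the *Chd2*m/m effect, 7 were called without a filter and 20 by DESeq2 (0 to 25 without single libraries, 11 without KO replicate 1), and medians ran from -0.079 to 0.049. The DKO median ran from -0.024 to 0.036.

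For CHD2 against IgG, 3 were called without a filter, 1 with at least 10 counts in every library, 19 by DESeq2, 8 with the replicate block and 9 with the block and GC correction, and the median was -0.22 with GC and length corrected and -0.21 with the block as well. Without single libraries the counts ran from 0 to 28 (1 without input replicate 2). For CHD2 against input the median was -0.80 with the correction and -0.81 with the block as well, medians ran from -1.78 to -1.35 and counts from 0 to 69 without single libraries, with 0 without input replicate 1, CHD2 replicate 1 or CHD2 replicate 2. For IgG against input counts ran from 0 to 40, with 0 without input replicate 2, 11 without input replicate 1 and 17 without CHD2 replicate 1.

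Between stages the median was -0.36 without a filter, -0.24 with at least 10 counts in every library, 0.024 with library totals and -0.44 with GC and length corrected, with or without the block, and -0.38 to -0.31 without single libraries. The E9.5 Het median was 0.012 with the correction. With the correction, the largest absolute deviation of a library's median member from its group mean was 0.0415 in the mEF Het set and 0.0247 in the *Chd2*m/m set. Without it the largest deviations were those of WT replicate 2 of each set, at -0.12 and 0.095.

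With full instead of effective lengths, the share of TPM in WT and mutant was 18.1 and 18.4% at E9.5, 17.7 and 16.5% at E13.5, 8.53 and 9.51% in brain, 22.6 and 21.7% in the mEF Het set, 24.9 and 23.9% in the KO set, 27.4 and 27.8% in the *Chd2*m/m set and 23.5 and 23.4% in the DKO set. It was 13.9, 8.76 and 6.89% in input, IgG and CHD2 libraries.

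With the replicate block, 1 member was called in *Chd2*m/m, *Rpl22l1* (-0.60, edgeR adjusted p = 1.74e-06), while block and GC correction together gave an adjusted p of 0.296. The call rests on the same-numbered pairs alone, which leave very little from which to measure the spread. The titles write the replicate numbers after the cross, and same-numbered libraries had correlations of -0.0556 and 0.0931. Apart from that and from CHD2 against IgG, the block changed no count of calls by over 1.5 times. No paired analysis was possible because replicate numbers differ for the KO and its WT, and hence for both interaction tests.

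The log2 fold changes of named genes that took the other sign in any fit without 1 library ranged as follows. In E9.5 Het, *Rpl23a* ran from -0.12 to 0.024 and *Rpl17* from -0.12 to 0.025, and in E13.5 Het *Rpl39l* ran from -0.14 to 0.23. In brain, *Rpl22l1* ran from -0.81 to 0.0075, *Rpl7l1* from -0.37 to 0.20 and *Rps27l* from -0.29 to 0.29. In mEFs, *Rpl31* ran from -0.073 to 0.23 in Het, and *Rpl39l* from -0.52 to 0.075 in *Chd2*m/m and from -0.72 to 0.022 in DKO. For CHD2 against input, *Rpl21* ran from -0.22 to 0.55 and *Rps4l* from -0.10 to 0.35. For CHD2 against IgG, *Rpl10a* ran from -0.0084 to 1.00 and *Rpl23a* from -0.022 to 0.60. Brain *Rps27l* also took the other sign with GC and length correction (0.046), with that and the replicate block (0.084) and, chosen after seeing the data, without the TruSeq libraries (0.13). None of these genes was called in the reported fits. With the replicate block and GC correction together, *Rps4l* for CHD2 against input (1.07, edgeR adjusted p = 0.0473) and *Rpl10a* for CHD2 against IgG (1.18, edgeR adjusted p = 0.0231) were called. The cause was not tested.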

Other observations

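Accessibility at the starts of the members was read from the deposited ATAC-seq peaks of KO and DKO mEFs and their WT, with a member counted when a peak lay within 300 bases of its annotated start (mm9). Of the 83 members with a position, 62 had such a peak in all 12 libraries and 2 in none. The 2 were *Rpl3l* and *Rpl10l*, the paralogs of muscle and testis that were also near 0 TPM. *Rpl39l*, at 14.8 TPM on average, had a peak in 5 of the 12 libraries.

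The percent of members with a peak was 77.1 to 97.6% per library, compared with 37.8 to 67.6% of 20145 genes. The median fold enrichment of these peaks was 7.21 to 12.9 for members and 7.64 to 11.1 for all genes with a peak. Libraries differed in how many peaks were called, from 18661 (DKO-set WT replicate 2, where 64 members had a peak) to 93597 (KO replicate 3, where 81 had one). DKO replicate 1 was also low, with 28349 peaks and 76 members. In the KO libraries 81 members had a peak each time, and in their 3 WT libraries 80.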
